A study of Mus musculus with 2 samples.

Results

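The genes described here are the 39 Hox genes of the mouse, the homeobox transcription factors that mark position along the body and the limb. They were chosen by symbol, as every gene named Hoxa, Hoxb, Hoxc or Hoxd with a number, out of 55536 annotated genes. The HoxA cluster on chromosome 6 held 11 of them, HoxB on chromosome 11 held 10, HoxC on chromosome 15 held 9 and HoxD on chromosome 2 held 9. RNA came from the gastrocnemius, the main calf muscle of the hindlimb, of male B6CASTF1/J mice at 14 days of age, which are hybrids of the C57BL/6J and CAST/EiJ strains. There was 1 group of 2 replicate libraries, replicate 2 and replicate 1, each started with 300 ng of total RNA to which ERCC control RNAs were added. No genotype change and no treatment was given. The labels number the libraries as biological replicates, yet both carry the same donor identifier, and the label speaks of 3 males. Whether the libraries came from different animals or from pools is therefore not settled, and their differences may be technical. No other muscle and no second age was analysed here.

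Hox genes lie side by side in clusters, and their order along the chromosome follows the order in which they act from head to tail. Genes with the same number in different clusters are paralogues, copies of 1 ancestral gene. Low numbers pattern the hindbrain and neck, middle numbers the chest, and high numbers the lower trunk and tail. In the limb bud the high-numbered genes of HoxA and HoxD, with HoxC in the hindlimb, pattern the segments between the hip and the digits. Adult cells, connective tissue cells in particular, often keep part of the Hox pattern of the place where they arose.

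The tables held 37329025 expected counts (estimated reads) for replicate 2 and 40825601 for replicate 1, of which added RNAs took 0.881% in replicate 2 and 0.731% in replicate 1. Levels are in TPM, transcript abundance scaled per length and per library, which allows genes to be compared. In replicate 2, 12031 genes reached 1 TPM, and in replicate 1, 12246 did. The labelled tissue carried its markers: the 6 skeletal muscle fibre genes summed to 100985 TPM in replicate 2 and 93967 in replicate 1. In a bulk sample such as this, fewer cells of a type and less RNA per cell cannot be told apart.

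Most Hox genes were low in this muscle, and a few were at the level of ordinary expressed genes. Of the 39, 12 reached 1 TPM in both libraries (30.8%), against 49.2% of the 22028 protein-coding genes. At 10 TPM or more in both libraries stood 2 Hox genes (5.13%), against 19.8% of protein-coding genes. Another 4 reached 1 TPM in 1 library only, and 23 stayed under 1 TPM in both. The summed level of all Hox genes was 77.5 TPM in replicate 2 and 85.5 in replicate 1. The 4 highest genes, Hoxc10, Hoxd8, Hoxd9 and Hoxa10, took 66.7% of that sum in replicate 2 and 64.0% in replicate 1. Genes with 0 counts in both libraries made up 15.4% of Hox genes and 24.7% of protein-coding genes.

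**Figure D1:**
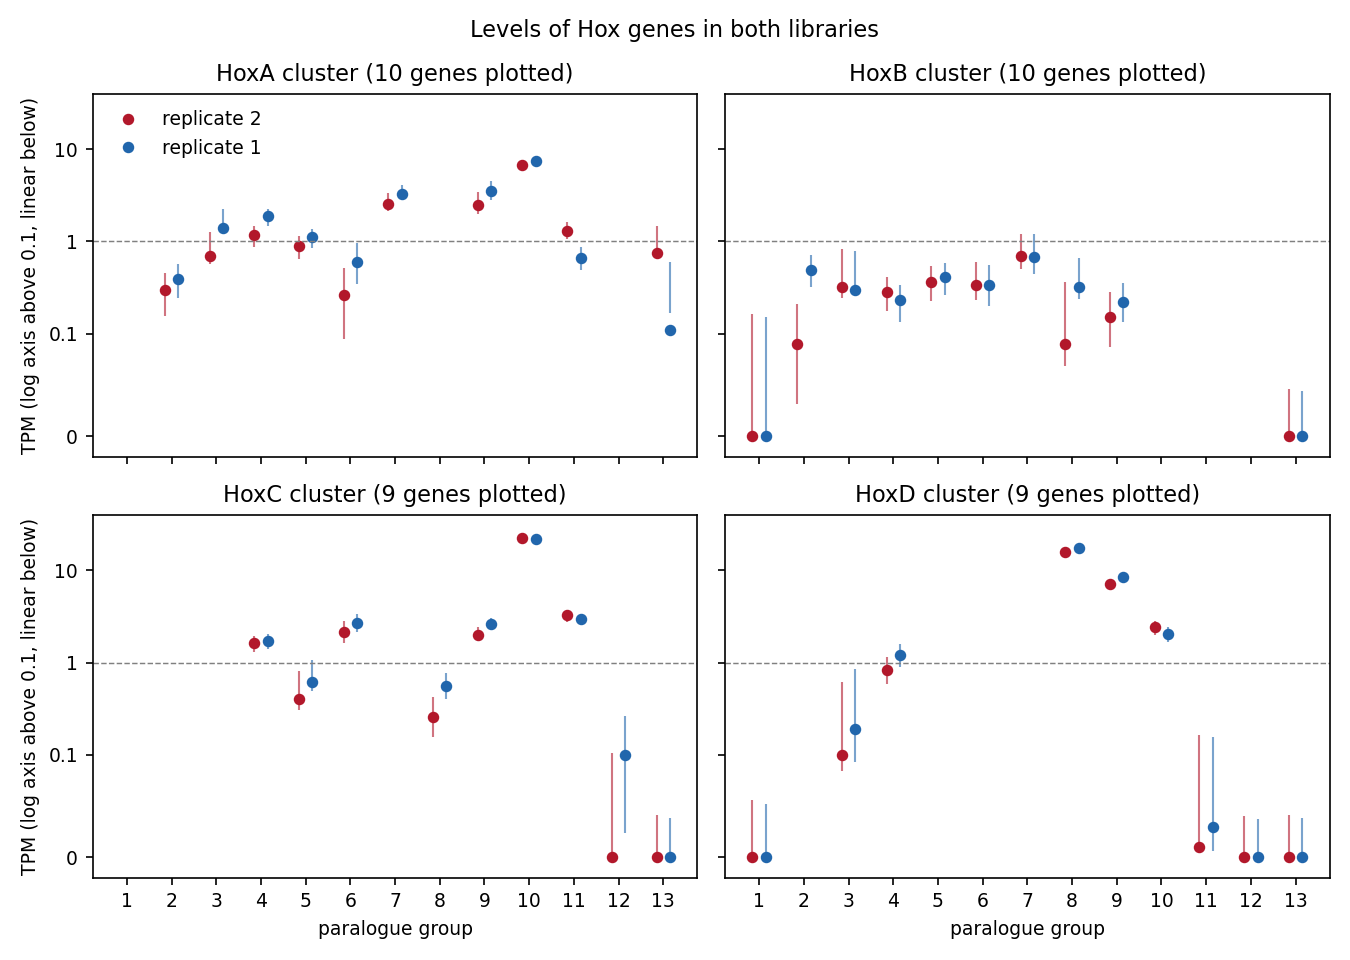
TPM of 38 Hox genes in replicate 2 (red) and replicate 1 (blue) against paralogue group, 1 panel per cluster, on an axis that is logarithmic above 0.1 TPM and linear below. Vertical lines are the quantifier's own interval and the dashed line is 1 TPM. HoxA and HoxC peak at group 10, HoxD at group 8, and every HoxB gene lies under the line.

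Paralogue group 10 was the highest group. Its members pattern the lumbar trunk and the upper segment of the limb, and Hoxc10 is a gene of the hindlimb rather than the forelimb bud. Hoxc10 (ENSMUSG00000022484.7, GRCm38 chromosome 15, 102966796 to 102971893, plus strand) had 22.3 TPM from 1209 counts in replicate 2 and 21.7 TPM from 1257 counts in replicate 1. With a mean of 22.0 ± 0.431 TPM (SD, n = 2) it was the highest Hox gene in the first quantification and ranked 2311th among protein-coding genes, above 89.5% of them. In the second quantification, made by the authors from the reads and an index, it came after Hoxd8, with 27.2 TPM in replicate 2 and 26.4 in replicate 1. Hoxa10 (ENSMUSG00000000938.11, chromosome 6, 52231197 to 52240854, minus strand), which also has a role in the uterus, had 6.65 TPM in replicate 2 and 7.37 in replicate 1. Hoxd10 (ENSMUSG00000050368.4, chromosome 2, 74691924 to 74695105, plus strand), which with Hoxc10 directs lumbar motor neurons, had 2.43 TPM in replicate 2 and 2.05 in replicate 1. The 3 genes thus stood in the same order in both libraries, with no overlap between neighbours. On protein_coding transcripts alone in the first quantification, however, Hoxa10 (2.08 TPM in replicate 2 and 2.23 in replicate 1) overlapped Hoxd10. Hoxc10 was 3.15 ± 0.290 times Hoxa10 and 9.87 ± 0.992 times Hoxd10 in TPM (SD, n = 2). In the second quantification these ratios were 2.57 ± 0.160 and 9.78 ± 1.11 (SD, n = 2). The whole group summed to 31.4 TPM in replicate 2 and 31.1 in replicate 1, which is 38.4 ± 2.91% of the Hox total (SD, n = 2). There is no group 10 gene in HoxB.

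The homeobox, the stretch of 180 bases that encodes the DNA-binding homeodomain, is the most alike part of these paralogues, and it is printed for the 3 genes of group 10 to show how far reads can tell them apart. The sequences are from GENCODE M21 transcripts, read 5′ to 3′ on the sense strand, and capitals mark the 18 bases of the recognition helix by which each homeobox was found.
Hoxc10: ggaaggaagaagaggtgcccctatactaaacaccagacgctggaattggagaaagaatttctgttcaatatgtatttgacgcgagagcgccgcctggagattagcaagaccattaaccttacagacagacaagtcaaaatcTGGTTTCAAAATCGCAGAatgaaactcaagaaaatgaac
Hoxa10: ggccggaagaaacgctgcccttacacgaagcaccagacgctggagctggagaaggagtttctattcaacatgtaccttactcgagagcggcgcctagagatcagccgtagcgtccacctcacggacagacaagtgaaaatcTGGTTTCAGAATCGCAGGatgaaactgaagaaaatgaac
Hoxd10: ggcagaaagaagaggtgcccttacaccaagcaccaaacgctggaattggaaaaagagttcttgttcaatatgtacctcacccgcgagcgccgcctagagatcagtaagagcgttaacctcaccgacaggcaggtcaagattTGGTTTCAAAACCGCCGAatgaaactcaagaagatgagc
Hoxc10 and Hoxa10 differed at 35 of the 180 bases (80.6% identity) and at 4 homeodomain residues. Hoxc10 and Hoxd10 differed at 31 bases (82.8%) and 3 residues, and Hoxa10 and Hoxd10 at 38 bases (78.9%) and 3 residues. Most differing codons encoded the same residue: 26 of 30 between Hoxc10 and Hoxa10, 27 of 30 between Hoxc10 and Hoxd10, and 29 of 32 between Hoxa10 and Hoxd10. Over the 42 pairs of paralogues in the same group, base identity was 67.2% to 93.9% with a median of 80.6%. For the 699 pairs of different groups it was 46.1% to 88.9% with a median of 60.6%. The longest run of identical bases was 47 within groups and 52 between groups, shorter than 100 bases. No stretch of 100 bases was shared between transcripts of Hox genes in different clusters. A read of 100 bases thus differs between paralogues, while the read length is not given in the sources used here.

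Group 8 was carried by 1 gene. Hoxd8 (ENSMUSG00000027102.4, chromosome 2, 74704615 to 74707933, plus strand), a gene of the middle of the HoxD cluster that acts in the trunk, had 15.7 TPM from 1090 counts in replicate 2 and 17.2 TPM from 1305 counts in replicate 1. Its mean of 16.5 ± 1.06 TPM (SD, n = 2) ranked second among Hox genes and 3019th among protein-coding genes. The second quantification placed Hoxd8 first among Hox genes, with 32.1 TPM in replicate 2 and 33.2 in replicate 1, a mean 1.98 times that of the first quantification. Its paralogues were far lower. Hoxc8, known for the chest spine and brachial motor neurons, had 0.26 TPM in replicate 2 and 0.56 in replicate 1. Hoxb8, which acts in the spinal cord and in blood progenitors, had 0.09 TPM in replicate 2 and 0.32 in replicate 1. Hoxd8 was 60.5 times Hoxc8 in TPM in replicate 2 and 30.8 times in replicate 1, where Hoxc8 had 15 counts in replicate 2 and 36 in replicate 1. The 300 bases around the RefSeq start of Hoxd8 (build GRCm38.p6, 250 before and 50 after, plus strand, chr2:74704365-74704664) are printed beside those of Hoxd13 (chr2:74667975-74668274, plus strand), the gene at the far end of the same cluster that was listed at 0 counts. Capitals mark CCAAT and TATAAA, searched on both strands, with TTTATA and ATTGG as their reverse complements; TATAAA and TTTATA can overlap, as they do in Hoxd13, and then count once.
Hoxd8: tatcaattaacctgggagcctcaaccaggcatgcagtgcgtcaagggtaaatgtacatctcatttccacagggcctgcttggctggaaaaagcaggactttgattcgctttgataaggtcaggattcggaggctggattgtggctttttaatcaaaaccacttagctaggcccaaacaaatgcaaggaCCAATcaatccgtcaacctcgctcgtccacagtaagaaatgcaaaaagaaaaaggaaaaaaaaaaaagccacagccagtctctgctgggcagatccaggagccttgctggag
Hoxd13: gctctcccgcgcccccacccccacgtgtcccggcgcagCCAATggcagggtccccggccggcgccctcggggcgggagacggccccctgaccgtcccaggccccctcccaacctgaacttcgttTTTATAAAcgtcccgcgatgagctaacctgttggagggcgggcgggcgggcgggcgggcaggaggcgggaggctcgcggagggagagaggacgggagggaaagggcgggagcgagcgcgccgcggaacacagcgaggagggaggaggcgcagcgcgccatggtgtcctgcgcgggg
The Hoxd8 window held 1 CCAAT, no TATAAA and 6 CpG dinucleotides at 46.7% G and C. It lies at the start of Hoxd8-203. In the first quantification that transcript had 3.18% of Hoxd8 TPM in replicate 2 and 0% in replicate 1. In the second it had 40.2% in replicate 2 and 33.5% in replicate 1. The starts of the coding transcripts Hoxd8-201 and Hoxd8-202, at 74704905 and 74705152, lie outside the window. The Hoxd13 window held both motifs and 37 CpG dinucleotides at 74.3% G and C. Sequences were present for 24 promoters of 22 Hox genes. CCAAT was in 15 of the 24 (62.5%), against 37.4% of 32851 promoters of all genes, and TATAAA in 4 (16.7%), against 13.6%. The median CpG count was 14.5 in Hox promoters and 7 in all promoters. By level, CCAAT was in 6 of 11 promoters of genes averaging 1 TPM or more and in 9 of 13 of the others.

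Group 9 was led by HoxD as well. Hoxd9 (ENSMUSG00000043342.9, chromosome 2, 74697727 to 74700208, plus strand), the neighbour of Hoxd8 and a gene of the upper limb segment, had 7.04 TPM in replicate 2 and 8.48 in replicate 1. Hoxa9, known for its part in blood stem cells and in aged muscle stem cells of mice, had 2.48 TPM in replicate 2 and 3.54 in replicate 1. Hoxc9, which sets the chest level of the spinal cord, had 2.01 TPM in replicate 2 and 2.63 in replicate 1. The Hoxa9 and Hoxc9 values overlap between libraries, while Hoxd9 lies above both. Hoxb9, the HoxB member, had 0.15 TPM in replicate 2 and 0.22 in replicate 1. Hoxd9 was 2.62 ± 0.313 times Hoxa9, 3.36 ± 0.197 times Hoxc9 and 42.7 ± 5.93 times Hoxb9 in TPM (SD, n = 2). Hoxd9 and Hoxa10 were not separated from each other, since Hoxd9 in replicate 2 (7.04 TPM) lay under Hoxa10 in replicate 1 (7.37 TPM).

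Groups 11 to 13, which pattern the segments below the knee and the foot, were low apart from Hoxc11. Hoxc11 (ENSMUSG00000001656.3, chromosome 15, 102954427 to 102957708, plus strand), a gene of the hindlimb bud like Hoxc10, had 3.28 TPM in replicate 2 and 2.99 in replicate 1. Hoxa11, needed with Hoxd11 for the shank and forearm, had 1.31 TPM in replicate 2 and 0.66 in replicate 1. Hoxd11 had 1.13 counts in replicate 2 and 1 in replicate 1, under the floor of 3 counts used here. Hoxc12 had 0 counts in replicate 2 and 3 in replicate 1, and Hoxd12 had 0 in both. Of the 4 genes of group 13, which pattern the digits and the end of the trunk, Hoxa13 was the single one with counts: 0.75 TPM from 50 counts in replicate 2 and 0.11 TPM from 8 counts in replicate 1. Hoxb13, a prostate and tail gene, Hoxc13, a gene of hair and nail, and Hoxd13 were listed at 0 in both libraries. For genes at 0 counts in both libraries, 3 counts would correspond to at most 0.0750 TPM in replicate 2 and 0.0702 in replicate 1, the floors of Hoxb1.

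Groups 4 to 7, genes of the neck and chest, averaged 1 to 3 TPM in 3 genes of HoxA, 2 of HoxC and 1 of HoxD. Hoxa7, which patterns chest vertebrae, had 2.51 TPM in replicate 2 and 3.28 in replicate 1. Hoxc6, a chest gene that also marks the forelimb level, had 2.12 TPM in replicate 2 and 2.67 in replicate 1. Hoxc4 and Hoxa4, genes of the neck vertebrae, averaged 1.68 ± 0.0778 and 1.51 ± 0.495 TPM (SD, n = 2), and their libraries overlap. Hoxd4 averaged 1.02 ± 0.276 TPM and Hoxa5, needed for the lung and the neck and chest boundary, 1.01 ± 0.148 TPM (SD, n = 2), each above 1 TPM in replicate 1 only. Hoxc5 (0.505 TPM), Hoxa6 (0.43 TPM) and the HoxB members Hoxb4, Hoxb5, Hoxb6 and Hoxb7 (0.255 to 0.685 TPM) had lower means. Hoxb7 was the highest HoxB gene, with 0.70 TPM in replicate 2 and 0.67 in replicate 1.

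Groups 1 to 3, the hindbrain end of the clusters, took 2.67 ± 0.942% of the summed Hox TPM (SD, n = 2). Hoxa3, needed for the thymus and parathyroid, led them with 0.69 TPM in replicate 2 and 1.39 in replicate 1. Hoxa2, which patterns the second pharyngeal arch, had 0.30 TPM in replicate 2 and 0.39 in replicate 1. Hoxb2 and Hoxb3, also of the hindbrain, averaged 0.29 ± 0.283 and 0.31 ± 0.0141 TPM (SD, n = 2). The libraries lay further apart for Hoxb3 in counts, 18 in replicate 2 and 30 in replicate 1. In the second quantification Hoxb3 had 0.310 TPM in replicate 2 and 0.583 in replicate 1. Hoxd3 averaged 0.145 TPM, from 5.75 counts in replicate 2 and 1.95 in replicate 1, the latter under the floor of 3 counts. The second quantification gave Hoxd3 0 in replicate 1. Hoxb1 and Hoxd1 were listed at 0 in both libraries, although the second quantification gave Hoxb1 2 estimated counts in replicate 2 and 7 in replicate 1. Over the whole order of mean levels, 33 genes were above 0, and in 25 of 32 neighbouring pairs the values of the libraries overlapped. Of the steps without overlap, the one below Hoxc10 turned round in the second quantification, and those below Hoxb7, Hoxb6 and Hoxd3 were lost there. Those below Hoxa10, Hoxb7 and Hoxd3 were lost on protein_coding transcripts alone in the first quantification.

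By cluster, HoxC and HoxD supplied most of the Hox transcripts and HoxB little. HoxA summed to 17.1 TPM in replicate 2 and 20.4 in replicate 1, a share of 22.9 ± 1.30% (SD, n = 2). HoxB summed to 2.33 TPM in replicate 2 and 2.98 in replicate 1, a share of 3.25 ± 0.338% (SD, n = 2), and 0 of its 10 genes reached 1 TPM in either library. HoxC summed to 32.0 TPM in replicate 2 and 33.0 in replicate 1, a share of 39.9 ± 1.92%, and HoxD to 26.1 TPM in replicate 2 and 29.2 in replicate 1, a share of 33.9 ± 0.289% (SD, n = 2). The order of these 2 clusters turned in the second quantification, where HoxD had 39.8% and HoxC 34.5%. Groups 9 to 13 took 60.4 ± 2.94% of the sum and groups 4 to 8 took 37.0 ± 2.00% (SD, n = 2). Within HoxD the level was lower at each step away from Hoxd8, through Hoxd9 and Hoxd10 in both libraries, with Hoxd11 to Hoxd13 at or under the floor. In HoxC the peak was 2 groups further on, and Hoxc11 was still at 3.14 ± 0.205 TPM (SD, n = 2) before Hoxc12 and Hoxc13 at or under the floor.

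**Figure D2:**
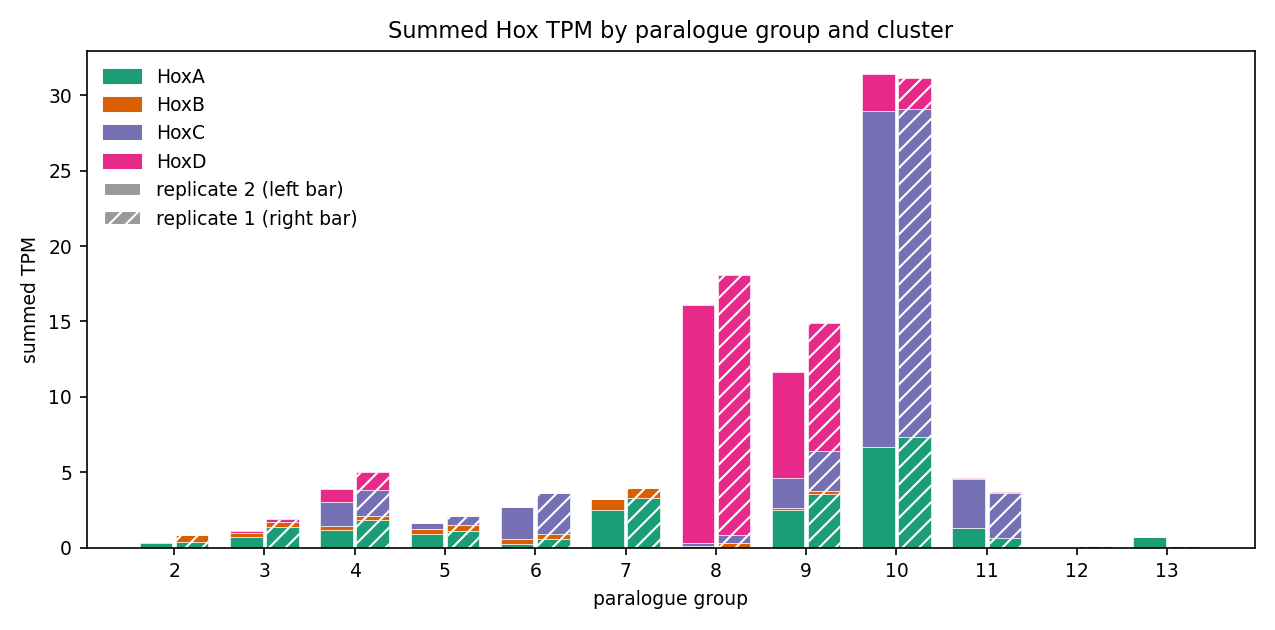
Summed TPM of paralogue groups 2 to 13 in replicate 2 (left bar) and replicate 1 (right, hatched bar), stacked by cluster. Group 10 is the tallest, at 31.4 TPM in replicate 2 and 31.1 in replicate 1, and is mostly HoxC, while group 8 is nearly all HoxD.

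At the level of transcripts, a large part of the TPM of several Hox genes lay on forms that the annotation does not class as protein_coding. Of the 15 Hox genes averaging 1 TPM or more, Hoxa10 had the largest such share in the first quantification, 69.2 ± 0.659% (SD, n = 2), and Hoxd4 in the second. Its transcript Hoxa10-203, of type processed_transcript, had 4.58 TPM in replicate 2 and 5.13 in replicate 1. The coding transcript Hoxa10-202 had 1.24 TPM in replicate 2 and 0.98 in replicate 1, and Hoxa10-201 had 0.84 TPM in replicate 2 and 1.25 in replicate 1. Hoxa10-203 has its 5′ end at 52233324 on the minus strand of chromosome 6, downstream of the starts of Hoxa10-202 at 52234939 and of Hoxa10-201 at 52240854. The second quantification gave it 56.8% in replicate 2 and 48.5% in replicate 1, below Hoxd4-203 of Hoxd4 with 62.3% in replicate 2 and 51.8% in replicate 1. The RefSeq promoters of the coding starts (GRCm38.p6, minus strand, chr6:52234890-52235189 near Hoxa10-202 and chr6:52240805-52241104 near Hoxa10-201) are printed to show how they differ, with the same motifs in capitals.
Hoxa10 near start: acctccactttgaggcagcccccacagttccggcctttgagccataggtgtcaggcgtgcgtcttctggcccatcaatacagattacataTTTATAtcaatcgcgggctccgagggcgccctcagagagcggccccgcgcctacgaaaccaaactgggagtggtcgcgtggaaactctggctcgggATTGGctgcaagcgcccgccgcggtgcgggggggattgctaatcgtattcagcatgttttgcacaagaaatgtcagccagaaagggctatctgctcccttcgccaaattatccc
Hoxa10 far start: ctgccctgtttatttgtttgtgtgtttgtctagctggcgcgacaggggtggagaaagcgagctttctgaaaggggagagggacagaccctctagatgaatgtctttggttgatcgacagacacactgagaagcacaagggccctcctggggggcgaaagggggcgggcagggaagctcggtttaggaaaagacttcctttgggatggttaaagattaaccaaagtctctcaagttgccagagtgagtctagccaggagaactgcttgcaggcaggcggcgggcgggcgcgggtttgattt
The near promoter held 1 TATAAA and 1 CCAAT match, both on the reverse strand, and the far one held neither. Counted over coding transcripts alone in the first quantification, Hoxa10 had 2.08 TPM in replicate 2 and 2.23 in replicate 1, below Hoxc11. The second quantification gave Hoxa10-201 2.62 TPM in replicate 2 and 3.94 in replicate 1. It gave Hoxa10-202 1.76 TPM in replicate 2 and 1.61 in replicate 1. Together these were not below Hoxc11 there, which had 4.36 TPM in replicate 2 and 3.86 in replicate 1.

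The other Hox genes averaging 1 TPM or more with TPM on such transcripts in the first quantification were Hoxd4, Hoxc6, Hoxa9 and Hoxa3. Hoxd4-203, which starts far upstream at 74711929 on chromosome 2, took 61.0% of Hoxd4 in replicate 2 and 54.5% in replicate 1. Of Hoxc6, 42.2 ± 1.71% (SD, n = 2) lay in Hoxc6-203 and Hoxc6-202, which start upstream of the coding transcript Hoxc6-201. Of Hoxa9, 34.6 ± 10.7% (SD, n = 2) did, mostly in Hoxa9-203. Of Hoxa3, 18.8% in replicate 2 and 24.5% in replicate 1 did, mostly in Hoxa3-203, a form with a retained intron. These are shares of TPM, which is scaled per length, and they rest on few counts. Hoxd4-203 had 18.55 counts in replicate 2 and 26.18 in replicate 1. In the same order, Hoxc6-202 had 7.92 and 10.95 and Hoxc6-203 had 7.8 and 9.3, where Hoxc6 had 69 and 95. Hoxa9-203 had 9.73 and 22.9, where Hoxa9 had 138 and 201, and Hoxa3-203 had 4.8 and 14.78. In the first quantification the coding form was the larger single transcript in Hoxc6, Hoxa9 and Hoxa3. In the second, Hoxa9-203 had 34.2% of Hoxa9 in replicate 2 and 38.1% in replicate 1. The coding Hoxa9-201 had 38.8% in replicate 2 and 32.8% in replicate 1, so their order differed between the libraries. In the first quantification Hoxc4 was split between the coding transcripts Hoxc4-201, with 59.8 ± 6.16%, and Hoxc4-202, with 40.2 ± 6.16% (SD, n = 2). The second gave Hoxc4-201 54.3% in replicate 2 and 43.2% in replicate 1, so the order of these transcripts differed between the libraries there. Hoxd8 was also split between coding transcripts, with 79.9 ± 1.17% in Hoxd8-201 and 18.5 ± 1.08% in Hoxd8-202 (SD, n = 2). The second quantification placed 40.2% in replicate 2 and 33.5% in replicate 1 on the short Hoxd8-203. For Hoxa7 the second quantification put 62.3% in replicate 2 on Hoxa7-205, a form marked for decay, and almost nothing in replicate 1. Hoxc10, Hoxd9, Hoxd10, Hoxc11, Hoxc9, Hoxc4, Hoxa4 and Hoxa5 have only protein_coding transcripts in the annotation. They could therefore have no TPM on such forms. Among Hox genes under 1 TPM on average, Hoxc8 had 53.8% in replicate 2 and 66.1% in replicate 1 on Hoxc8-202, a form with a retained intron, and Hoxa11, Hoxb5, Hoxb7 and Hoxd11 also had a share on such forms in at least 1 library. Over the 15 Hox genes averaging 1 TPM or more, the second quantification was 1.16 to 1.98 times the first, with a median of 1.31 against 1.35 over all genes at that level.

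**Figure D3:**
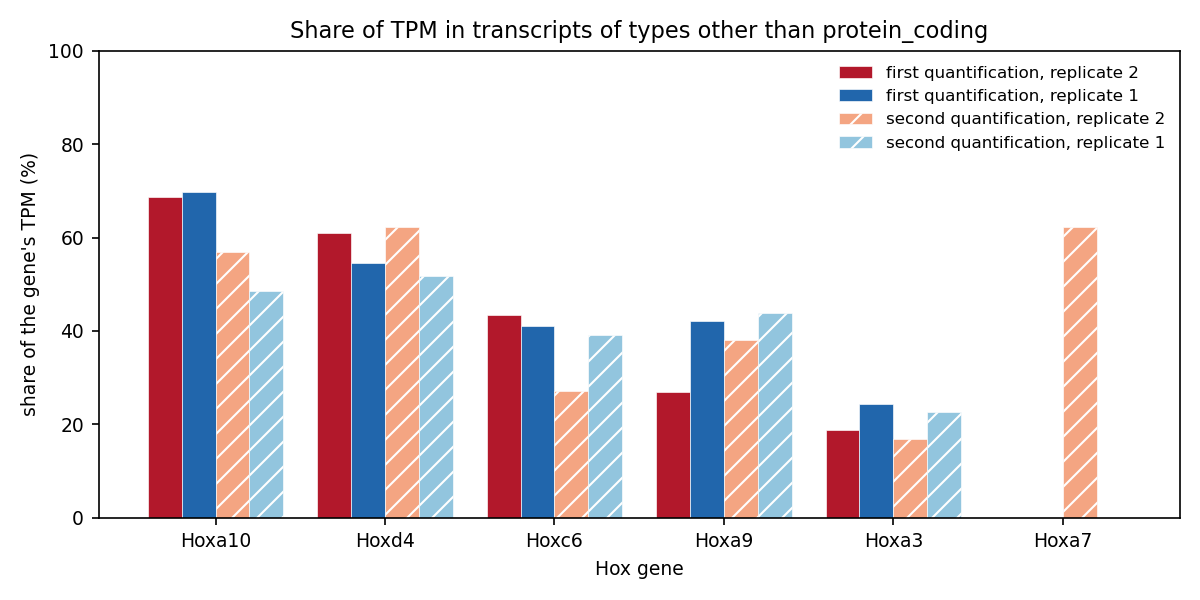
Share of each gene's TPM, in percent, on transcripts of types other than protein_coding, for the Hox genes averaging 1 TPM or more that have such a share in either quantification. Bars from left to right are the first quantification in replicate 2 and replicate 1, then the second quantification (hatched) in replicate 2 and replicate 1. Hoxa10 has 69.2% on average in the first quantification, and Hoxa7 has a bar in 1 library of the second quantification only.

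Hox genes overlap each other and other transcripts, which limits some of these values. The spans from the first to the last Hox gene held 46 other annotated genes, of which 27 had 0 counts in both libraries and 2 reached 1 TPM in both. Hoxd3os1 (chromosome 2, 74703248 to 74716130, minus strand), antisense to the part of HoxD that holds Hoxd8, Hoxd4 and Hoxd3, had 4.59 TPM in replicate 2 and 5.57 in replicate 1. Hoxa11os (chromosome 6, 52244393 to 52249799, plus strand), antisense to Hoxa11, had 1.27 TPM in replicate 2 and 1.30 in replicate 1. Hotair, the HoxC noncoding RNA known as a partner of Polycomb in human cells, had 0.44 TPM from 25 counts in replicate 2 and 0.33 TPM from 20 counts in replicate 1. Hottip, the noncoding RNA at the Hoxa13 end, and Haglr of HoxD were listed at 0. Of the Hox genes, 14 overlapped a gene on the other strand, and the libraries are labelled with a spike profile for stranded kits, but whether counting used the strand is not given. In stretches of 100 bases, 49.7% of Hoxb3, 31.2% of Hoxa11 and 24.5% of Hoxb2 also lie in an antisense transcript. On the same strand, 57.8% of Hoxd3 and 41.1% of Hoxd4 are shared with each other or with the overlapping gene Gm28230, so their split is uncertain. Gm28230 itself had 0 counts in replicate 2 and 17.97 in replicate 1. Hoxc10 shares 3.81% with Hoxc5, whose transcript Hoxc5-202 is 615 bases long but spans 102967443 to 103015676. The first quantification gave Hoxc5-202 0 counts in both libraries.

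The clusters also carry microRNA genes whose targets include Hox messages. The hairpin genes of miR-10 and miR-196 and Mir615 were listed at 0 in both libraries, and mature microRNAs were not measured here. Their mature sequences, from RefSeq (GRCm38.p6), are printed 5′ to 3′ with the seed, bases 2 to 8, in capitals. The pairs share their seeds: AGGUAGU in miR-196a and miR-196b, ACCCUGU in miR-10a and miR-10b.
miR-196a-5p: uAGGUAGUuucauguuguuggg
miR-196b-5p: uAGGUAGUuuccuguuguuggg
miR-10a-5p: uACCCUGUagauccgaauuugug
miR-10b-5p: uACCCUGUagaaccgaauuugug
A match to the miR-196 seed, ACTACCT on the message, was in the 3′ UTR of 9 of 39 Hox genes (23.1%), Hoxa7, Hoxa9, Hoxb7 and Hoxc8 among them, against 6.09% of 21033 genes. A match to the miR-10 seed, ACAGGGT, was in 4 of 39 (10.3%), Hoxa3 and Hoxb3 among them, against 12.5% of all genes. The 3′ UTRs had similar median lengths, 966 bases for Hox genes and 960 for all. Hoxa7 held 4 matches, the most of any Hox gene, and the sites below, with the seed match in capitals, are the one in Hoxa7 with the most paired bases, that of Hoxa9 and the pair of Hoxc8.
Hoxa7 site: actactagccctaaACTACCTa
Hoxa9 site: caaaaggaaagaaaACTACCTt
Hoxc8 first site: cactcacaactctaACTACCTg
Hoxc8 second site: taaatctttaacatACTACCTa
The 9 genes with a miR-196 match ran from 0 TPM (Hoxb1) to 3.01 TPM (Hoxa9), and the 4 highest Hox genes were not among them. A seed match is a description of the letters, not of a site in use.

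The libraries differed in 5 of the 29 Hox genes with enough counts to test, by an exact binomial test on rounded counts with TMM-scaled library sizes and Benjamini-Hochberg adjustment over all 17245 genes tested. Over all genes the same test called 21.5%, so this count is near the rate of all genes. Of the 5, 2 were higher in replicate 2, where the rate over all genes was 10.9%, and 3 were higher in replicate 1, where it was 10.6%. The test covers counting error between these 2 libraries and compares no conditions. Scaled by ERCC totals in place of TMM, which shifts every gene by -0.29 on the log2 scale, it called 17 Hox genes, 2 higher in replicate 2 and 15 in replicate 1, while 52.5% of all genes were called, 1.72% higher in replicate 2 and 50.8% in replicate 1. The second quantification called 8 Hox genes and 21.4% of all genes.

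The genes called higher in replicate 2 were Hoxa13 and Hoxa11. Since the calls came at a rate near that of all genes, no pattern by position is drawn from them. Hoxa13 (ENSMUSG00000038203.18, chromosome 6, 52257694 to 52260880, minus strand) had 50 counts in replicate 2 and 8 in replicate 1, a log2 ratio of 2.80 (adjusted p = 2.16e-08, exact binomial test). The quantifier's intervals lay apart, 0.758 to 1.46 TPM for replicate 2 against 0.167 to 0.602 for replicate 1, and both point values lay under their own interval. Hoxa11 (ENSMUSG00000038210.10, chromosome 6, 52242106 to 52245810, minus strand) had 86 counts in replicate 2 and 45 in replicate 1, a log2 ratio of 1.09 (adjusted p = 0.000349, exact binomial test). Its antisense partner Hoxa11os had 37 counts in replicate 2 and 42 in replicate 1 and did not pass the test. Hoxd10 and Hoxc11 had log2 count ratios of 0.30 and 0.19 and did not pass, and under ERCC scaling the excess of Hoxc11 turns round.

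The genes called higher in replicate 1 were Hoxa3, Hoxb2 and Hoxa7. Hoxa3 (ENSMUSG00000079560.13, chromosome 6, 52169062 to 52213336, minus strand) had 48.8 counts in replicate 2 and 103 in replicate 1, a log2 ratio of -0.92 (adjusted p = 0.00153, exact binomial test). Hoxb2 (ENSMUSG00000075588.6, chromosome 11, 96350525 to 96354012, plus strand) had 4 counts in replicate 2 and 24 in replicate 1, a log2 ratio of -2.43 (adjusted p = 0.00331, exact binomial test). Hoxb3os, which overlaps Hoxb2 on the other strand, went the same way, with 4 counts in replicate 2 and 15 in replicate 1, and did not pass the test. Hoxa7 (ENSMUSG00000038236.8, chromosome 6, 52214491 to 52221854, minus strand) had 119 counts in replicate 2 and 179 in replicate 1, a log2 ratio of -0.44 that was close to the threshold (adjusted p = 0.0497, exact binomial test). It was lost when genes with low counts were kept in the adjustment. Hoxc8, Hoxa4, Hoxa9 and Hoxb8 were lower in replicate 2 and just missed the threshold, with adjusted p-values of 0.0517, 0.0626, 0.0631 and 0.0637 in the exact binomial test. The 4 highest Hox genes, Hoxc10, Hoxd8, Hoxd9 and Hoxa10, were not called with TMM scaling and were called higher in replicate 1 with ERCC scaling.

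Across the 29 tested genes, the log2 count ratio of replicate 2 over replicate 1 ran with paralogue number (Pearson's r 0.57, Spearman's rho 0.48). Within HoxA alone r was 0.76 and rho 0.65 over 10 genes, within HoxB 0.29 and 0.17 over 8 genes, within HoxC 0.28 and 0.46 over 7 genes, and within HoxD 0.86 and 0.80 over 4 genes. Over the 28 genes without Hoxa13 r was 0.44 and rho 0.43. These are descriptions across genes that share both libraries, and genes are not independent replicates. In level, groups 1 to 3 summed to 1.55 TPM in replicate 2 and 2.85 in replicate 1, groups 4 to 8 to 27.5 TPM in replicate 2 and 32.8 in replicate 1, and groups 9 to 13 to 48.4 TPM in replicate 2 and 49.9 in replicate 1. Of the 15 Hox genes averaging 1 TPM or more, 3 were higher in replicate 2 and 12 in replicate 1, with a median log2(TPM + 1) difference of -0.23 and an SD of 0.19. Over all 12156 genes at that level the median was -0.04 and the SD 0.30, with 4861 higher in replicate 2 and 7246 in replicate 1.

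**Figure D4:**
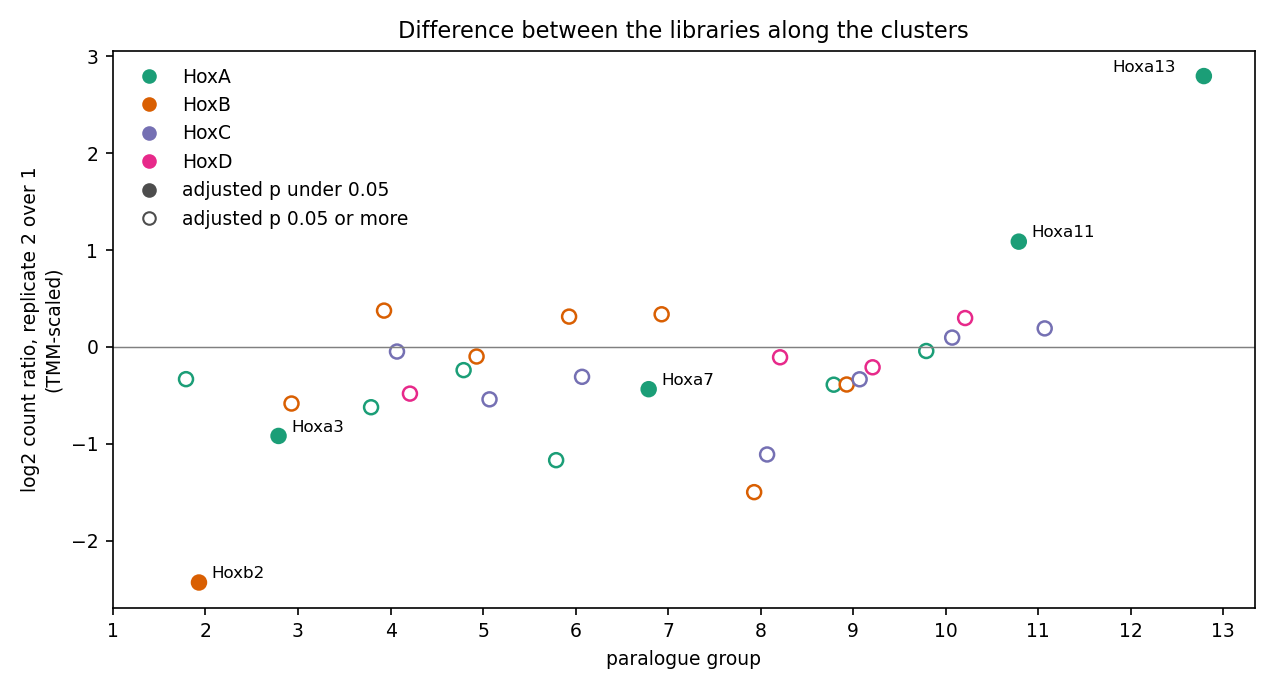
Log2 count ratio of replicate 2 over replicate 1, scaled by TMM, for the 29 tested Hox genes against paralogue group, coloured by cluster. Filled points passed the exact binomial test at an adjusted p under 0.05. Hoxa13 (2.80) and Hoxa11 (1.09) lie at the upper right, and Hoxb2 (-2.43) is the lowest point.

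The libraries also differed in markers of muscle fibres and of other cell types, whose part in the Hox differences was not tested. All 6 fibre markers were called higher in replicate 2, where 10.9% of all genes were, and none in replicate 1, where 10.6% were. Their summed TPM in replicate 2 was 1.07 times that in replicate 1, and at such high counts small differences pass this test. The marker calls use TMM scaling, and scaling by ERCC totals would shift every gene by -0.29 on the log2 scale. The 3 erythroid markers, also all called higher in replicate 2, summed to 1347 TPM in replicate 2 and 977 in replicate 1. Of the 4 endothelial markers, which summed to 119 TPM in replicate 2 and 138 in replicate 1, 3 were called higher in replicate 1. The 5 tendon markers, all above 1 TPM, summed to 137 TPM in replicate 2 and 203 in replicate 1, and 4 of them were called higher in replicate 1, while Scx was called higher in replicate 2 with 6.23 TPM, against 4.61 TPM in replicate 1. The 7 markers of fibro-adipogenic progenitors and fibroblasts, all above 1 TPM, summed to 2111 TPM in replicate 2 and 2601 in replicate 1. Of these, 4 were called higher in replicate 1, Col1a1 with 1118 TPM in replicate 2 and 1597 in replicate 1 among them, and Col3a1 was called higher in replicate 2. The 4 Schwann cell markers summed to 114 TPM in replicate 2 and 77.5 in replicate 1. The 6 cartilage and bone markers summed to 8.16 TPM in replicate 2 and 11.8 in replicate 1. Satellite cells, the stem cells of muscle, had 12.5 TPM over 6 markers in replicate 2 and 13.7 TPM in replicate 1, with Pax3 at or under the floor. Skin keratins Krt5 and Krt14 were listed at 0, and skin markers summed to 1.98 TPM in replicate 2 and 2.03 in replicate 1. The motor neuron markers Chat, Mnx1 and Slc18a3 were listed at 0 in both libraries, and the remaining one, Isl1, had 3 counts in replicate 2 and 16 in replicate 1.

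Hox proteins bind DNA together with TALE homeodomain cofactors, and 6 of 9 of these reached 1 TPM in both libraries. Pknox2 had 12.6 TPM in replicate 2 and 14.2 in replicate 1 and Pbx2 had 6.97 TPM in replicate 2 and 7.83 in replicate 1. Pknox1 averaged 3.72 ± 0.212 TPM (SD, n = 2), and Pbx4, best known from the testis, was at or under the floor. None of the 8 tested cofactors was called between the libraries by the exact binomial test, against 21.5% of all genes. Hoxc10 and Hoxd8 therefore stood above every TALE cofactor in TPM in both libraries.

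Regulators that keep Hox genes off or on were broadly present. Of 24 Polycomb genes, whose products hold Hox genes silent, 21 reached 1 TPM in both libraries, led by Pcgf3 (18.9 ± 0.898 TPM), Jarid2 (14.7 ± 1.33 TPM), Phc2 (12.6 ± 0.495 TPM) and Bmi1 (12.4 ± 0.969 TPM; SD, n = 2). All 24 were tested, and the test called 4 higher in replicate 2 (Pcgf3, Jarid2, Bmi1 and Cbx8), against 10.9% of all genes, and 4 higher in replicate 1 (Cbx6, Ezh1, Phc3 and Ring1), against 10.6%. All 10 trithorax and H3K27 demethylase genes, whose products keep Hox genes active, reached 1 TPM, led by Dpy30 (28.0 ± 0.651 TPM; SD, n = 2), Kdm6b, Ash2l and Kdm6a. Of the 10 tested, 4 were called higher in replicate 1, namely Kdm6a, Kmt2b, Kmt2a and Men1, against 10.6% of all genes, and 0 higher in replicate 2, against 10.9%. Of 12 upstream regulators, 6 reached 1 TPM in both libraries. Of the 7 tested, 4 were called higher in replicate 2, against 10.9% of all genes, and 0 higher in replicate 1, against 10.6%. The retinoic acid receptor genes Rara and Rarb and the retinoic acid synthase gene Aldh1a2 were among them, as was Cyp26b1, which degrades retinoic acid and had 0.75 TPM in replicate 2 and 0.49 in replicate 1. The Cdx genes, which start Hox expression in the embryo's tail, were listed at 0, and Cyp26a1 and Cyp26c1 were at or under the floor.

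**Figure D5:**
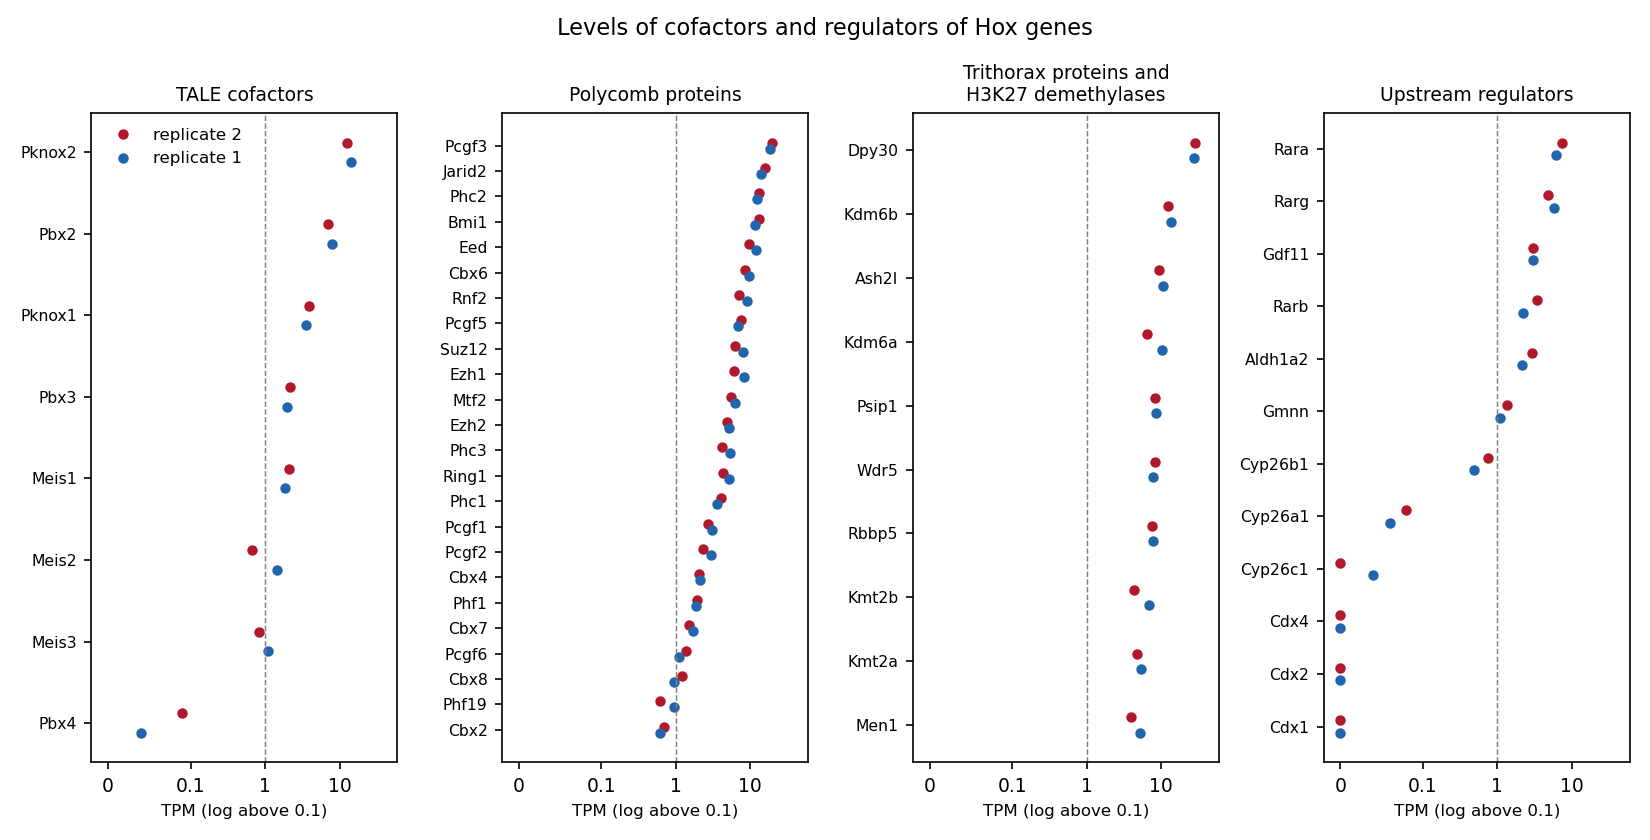
TPM in replicate 2 (red) and replicate 1 (blue) of TALE cofactors, Polycomb genes, trithorax and H3K27 demethylase genes, and upstream regulators, on axes that are logarithmic above 0.1 TPM and linear below. The dashed line is 1 TPM. All 10 trithorax and demethylase genes lie to its right, and the 3 Cdx genes lie at 0.

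Among 21 other homeobox and T-box genes of the limb, 9 reached 1 TPM in both libraries. The highest was Tbx15, a gene of the limb skeleton and of fast muscle fibres, with 55.3 TPM in replicate 2 and 67.2 in replicate 1, above any Hox gene. Among the next highest, Prrx1 (17.5 ± 0.226 TPM), a limb connective tissue gene, and Lbx1 (15.2 ± 0.983 TPM; SD, n = 2), a gene of migrating limb muscle precursors, were near the level of Hoxd8. Of the 16 tested, En1, Six2 and Lbx1 were called higher in replicate 2 and Tbx15 higher in replicate 1, a count near the 21.5% of all genes called. The hindlimb genes Tbx4 and Pitx1 were at 0.80 ± 0.0424 and 0.295 ± 0.00707 TPM (SD, n = 2), and the forelimb gene Tbx5 had 0 counts in replicate 2 and 3 in replicate 1. Evx2, the neighbour of Hoxd13, had 3 counts in replicate 2 and 0 in replicate 1, and Evx1, the neighbour of Hoxa13, had 0 in both.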

How the data were processed

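Total RNA of 2 libraries of 1 group was quantified. Per the labels and the deposited description, the authors used mm10 with GENCODE M21; no aligner or quantifier is named in these sources. From transcriptome alignments the authors deposited expected counts (estimated reads, not normalised), TPM scaled over all entries of a table with added RNAs included, and an interval around each TPM, per gene and transcript. A second deposited table of estimated counts and TPM per transcript, made from reads and an index, was summed per gene. The reference holds no CAST alleles, so the parental alleles were not told apart.

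Counts were rounded. Because edgeR's quasi-likelihood test needs residual degrees of freedom, which 1 library against 1 lacks, a two-sided exact binomial test was used where the summed count of both libraries was at least 10. Library sizes were scaled by TMM (edgeR 4.0.16, R 4.3.3), p-values were adjusted by Benjamini-Hochberg over 17245 genes, and 0.05 was the threshold. The test was checked on simulated data drawn with counting error only, so that check does not cover other variation between libraries. Differences in level use log2(TPM + 1). Floors of 3 counts, 0.0804 CPM in replicate 2 and 0.0735 CPM in replicate 1, cover counting error only. Alternatives were DESeq2 1.42.0 size factors, summed counts or ERCC totals, no count filter, other TPM limits and pseudocounts, the second quantification, counts in place of TPM, protein_coding transcripts alone, TPM rescaled to nuclear protein-coding genes and leaving out a library. Homeoboxes, shared stretches, promoter motifs and seed matches were searched with Python 3.11.15 in GENCODE M21 transcripts and RefSeq sequences (GRCm38.p6).

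Names were taken from all Hox genes, transcripts that average 10% or more of a gene averaging 1 TPM or more, genes in the cluster spans at 1 TPM, and, of the gene lists, the 4 highest members, those under the floor and those called; 1 Hox gene and some list genes are not reported here, though sums and counts include them. Hotair, Hoxb3os, Tbx4, Pitx1, Gm28230 and some transcripts with smaller shares were named after their values were seen. Members and lists were chosen with earlier results of these data known.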

Additional observations from a re-analysis of the deposited data

How the results depend on the processing

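The main limits are 2 libraries of unsettled origin, low counts in most Hox genes, and a single muscle and age. The count of Hox genes at 1 TPM or more in both libraries, 12 in the report, was 17 at 0.5 TPM, 10 at 2 TPM, 13 in the second quantification, 17 after rescaling TPM to nuclear protein-coding genes and 12 on protein_coding transcripts alone, and with a library left out it ranged from 13 to 15. Cluster shares moved by more than the spread between libraries in several settings. The second quantification gave HoxC 34.5%, HoxD 39.8% and groups 9 to 13 55.2%, so that HoxD led HoxC. Counts in place of TPM gave HoxA 20.9%, HoxC 37.9% and HoxD 38.2%. On protein_coding transcripts alone HoxA had 17.0%, HoxC 42.6% and HoxD 36.9%. With only genes at a mean of 1 TPM or more, HoxB had 0%, HoxC 41.8% and HoxD 36.4%. The share of HoxA without 1 library ranged from 22.0% to 23.9%, that of HoxB from 3.01% to 3.48%, that of HoxC from 38.5% to 41.3%, that of HoxD from 33.7% to 34.1%, and that of groups 9 to 13 from 58.3% to 62.5%. The exact binomial test called the same 5 Hox genes with DESeq2 size factors or summed counts and 4 of them, without Hoxa7, with no filter on low counts. The second quantification called 8, the same 5 with Hoxb8, Hoxc8 and Hoxc9. Scaling by ERCC totals shifted every gene by -0.29 on the log2 scale against TMM and called 17 Hox genes, 2 higher in replicate 2 and 15 higher in replicate 1, at a rate of 52.5% over all genes. The median log2 difference of Hox genes stayed negative in all 4 settings tried, between -0.28 and -0.13. No paired analysis was possible because the study has a single group.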
